A study of Homo sapiens with 16 samples.

Results

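The 2 phosphorylated forms of RNA polymerase II were compared at sites where a region of each had been called in at least 1 of 2 colorectal carcinoma lines. The sites are the regions of the polymerase phosphorylated at Ser5 (Pol2Ser5) that overlap a region of the polymerase phosphorylated at Ser2 (Pol2Ser2) by at least 1 bp, each joined to the Ser2 region with the longest overlap. Of 149589 Ser5 regions, 72087 (48.2%) formed such a pair, and they used 57019 of 236942 Ser2 regions (24.1%). The lines were DKO, made from HCT116 by disrupting the genes of the DNA methyltransferases DNMT1 and DNMT3B, and HCT116 itself, a line from a colorectal carcinoma. Both were grown in the same medium with no treatment named, and the labels name DKO only by its line. Chromatin immunoprecipitation followed by sequencing (ChIP-seq) gave 16 samples, 1 library of each of 7 targets in each line together with 2 inputs that were not used here. The question was which sites of a line rank higher for one phosphorylated form than for the other, and how such sites differ in acetylated histone H3 (H3K27Ac), CTCF, cohesin and region length.

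The largest subunit of RNA polymerase II ends in a tail of repeated heptapeptides whose serines are phosphorylated in turn during transcription. Phosphorylation at Ser5, placed by CDK7 in the general factor TFIIH, marks polymerase that has begun transcription and is abundant near promoters. Phosphorylation at Ser2, placed mainly by CDK9 and CDK12, accompanies elongation and builds up along the gene body towards its end. H3K27Ac marks active promoters and enhancers, CTCF is a DNA-binding protein that helps form chromatin loop anchors, and RAD21 and SMC1 are subunits of the cohesin ring that is held up at CTCF sites.

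Each deposited table gives the normalized read density of both lines, and each was normalized separately. A density of Ser2 was therefore never set against a density of Ser5 directly. Within a line the densities were ranked over the 72087 pairs as percentiles from 0 to 100, and the rank difference is the Ser2 percentile minus the Ser5 percentile. A pair was called Ser2-rich at a rank difference of 25 points or more, Ser5-rich at -25 points or less, and balanced between these values. The call is relative to the other pairs of the same line and says nothing of the amount of either form.

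The pairs lay close together, with a median overlap of 258 bp and a median distance of 204 bp between the midpoints of the 2 regions. In 87.9% of pairs the midpoints were within 1 kb. The members were not all separate, since 23608 of the Ser5 regions (32.7%) shared their Ser2 region with another Ser5 region, and 1 Ser2 region held 22 of them. The rule admitted 593 pairs with an overlap of 10 bp or less and left out 622 Ser5 regions that were within 10 bp of a Ser2 region. Compared with the 77502 unpaired Ser5 regions, the paired regions were longer, with a median of 391 bp against 227 bp. Paired regions also had the higher median Ser5 density, at 25.0 against 10.9 in DKO and 20.5 against 12.2 in HCT116. H3K27Ac overlapped 46.1% of paired against 31.7% of unpaired regions in DKO, and 45.8% against 31.3% in HCT116.

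The reads behind each density were recovered as whole numbers, which fitted a counting window of 2 kb. The window is inferred from the values, and the sources used here do not say where in a region it is centred. A Ser2 rank belongs to the whole Ser2 region, so it need not describe the place of the paired Ser5 region. The median pair had 44 Ser2 reads (quartiles 26 and 77) and 64 Ser5 reads (40 and 109) in DKO, and 51 Ser2 reads (33 and 82) and 31 Ser5 reads (20 and 51) in HCT116. At these medians the exact 95% Poisson interval of the reads spanned percentiles 33.8 to 64.6 for Ser2 and 35.3 to 64.0 for Ser5 in DKO, and 31.3 to 65.6 for Ser2 and 28.1 to 70.2 for Ser5 in HCT116. A rank difference of 25 points at a single pair near the middle can thus lie within counting error, and the results below rest on groups of pairs. With 1 library per line and target there is no replicate check and no test between samples. Every interval describes counting error, or how regions of these libraries scatter, and no more.

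Across the pairs the 2 forms ranked sites only partly alike, and over all pairs the relation was looser in HCT116. The Spearman correlation of Ser2 with Ser5 density was 0.47 in DKO and 0.30 in HCT116, over 72087 pairs that share libraries, counting windows and in part Ser2 regions. The median absolute rank difference was 17.5 points in DKO and 19.4 points in HCT116. When only the 53312 pairs called in DKO in both tables were ranked, the correlation in DKO was 0.269, beside 0.273 over the 26603 such pairs in HCT116.

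The Ser2 rank followed the Ser5 rank up to a point and then broke away from it. In DKO the median Ser2 percentile was 5.22 in the lowest 5 percentiles of Ser5 and 79.2 between Ser5 percentiles 75 and 80. Between Ser5 percentiles 85 and 90 it was 40.6, with quartiles of 22.1 and 71.2, and in the top 5 percentiles it was 67.0. HCT116 had the same bend, with a median Ser2 percentile of 11.5 at the lowest Ser5 levels, 76.2 between 75 and 80, 28.7 between 85 and 90 and 57.5 at the top. The sites beyond the bend, at Ser5 percentiles 85 to 90, also differed in their marks from those before it, at Ser5 percentiles 75 to 80. H3K27Ac overlapped 98.8% beyond it against 75.0% before it in DKO and 97.6% against 60.3% in HCT116. The share with CTCF was 76.1% beyond it against 52.0% before it in DKO, and 67.8% against 28.8% in HCT116. The median Ser5 region was 1651 bp long beyond it against 881 bp before it in DKO, and 1553 bp against 560 bp in HCT116. These marks and the length also rose further towards the top, where the Ser2 rank rose again. In the top 5 percentiles of Ser5 the CTCF share was 90.2% in DKO and 89.8% in HCT116. The median length there was 2689 bp in DKO and 2569.5 bp in HCT116.

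**Figure D1:**
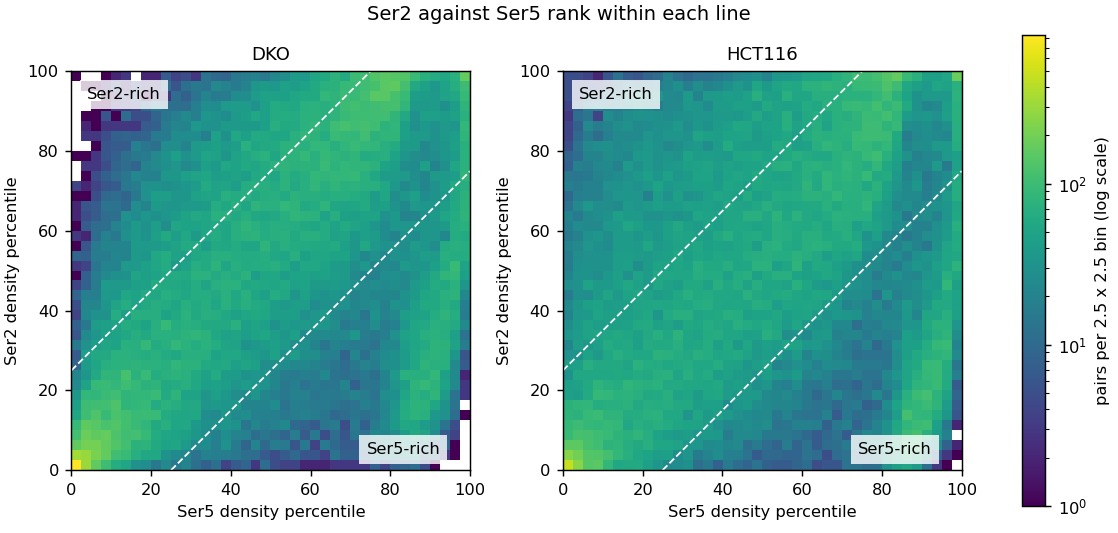
Number of pairs by Ser5 density percentile (x axis) and Ser2 density percentile (y axis) in DKO (left) and HCT116 (right), in bins of 2.5 by 2.5 percentile points on a log colour scale. The dashed lines mark rank differences of 25 and -25 points. A broad diagonal band runs through the balanced pairs, and a separate steep band of Ser5-rich pairs stands between Ser5 percentiles of about 80 and 100.

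In DKO 13123 pairs (18.2%) were Ser2-rich and 12893 (17.9%) were Ser5-rich. In HCT116 15529 pairs (21.5%) were Ser2-rich and 14060 (19.5%) were Ser5-rich. The pairs nearest to the limit were at 25.0003 points inside and 24.9997 points outside the Ser2-rich class in DKO, and at -25.008 inside and -24.9927 outside the Ser5-rich class. In HCT116 these values were 25.0017 and 24.999 for Ser2-rich, and -25.0003 and -24.9969 for Ser5-rich. Ser2-rich pairs had medians of 82 Ser2 and 49 Ser5 reads in DKO and 86 Ser2 and 22 Ser5 reads in HCT116. Ser5-rich pairs had medians of 29 Ser2 and 270 Ser5 reads in DKO and 33 Ser2 and 123 Ser5 reads in HCT116. The classes differ in Ser5 level by their construction, since no pair above Ser5 percentile 75 can be Ser2-rich and no pair below Ser5 percentile 25 can be Ser5-rich.

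H3K27Ac differed widely between the classes. It overlapped 26.6% of Ser2-rich pairs (Wilson 95% interval 25.8 to 27.3), 39.3% of balanced pairs and 90.6% of Ser5-rich pairs (90.04 to 91.05) in DKO. In HCT116 the shares were 25.3% (24.6 to 26.0), 39.4% and 87.9% (87.3 to 88.4). Ser2-rich pairs were thus below, and Ser5-rich pairs far above, the 46.1% of all pairs in DKO and the 45.8% in HCT116. The acetylation was also weaker where it was present, with a median H3K27Ac density of 63.3 at Ser2-rich pairs against 200 at Ser5-rich pairs in DKO, and 61.2 against 206 in HCT116. The difference in share, Ser2-rich minus Ser5-rich, was -64.0 points in DKO and -62.5 points in HCT116.

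Part of that difference went with the Ser5 level and the length of the regions. Among pairs with a Ser5 percentile between 40 and 60, H3K27Ac overlapped 33.7% of Ser2-rich against 57.2% of Ser5-rich pairs in DKO, a difference of -23.5 points, and 30.6% against 54.9% in HCT116, a difference of -24.3 points. Brought to the same Ser5 length distribution, the differences were -39.7 points in DKO and -40.9 points in HCT116. The sign held in both lines under each of these settings. In the fourth Ser5 quintile of DKO, H3K27Ac overlapped 54.0% of pairs in the highest and 89.3% in the lowest Ser2 quintile, and in HCT116 these shares were 44.1% and 89.0%. The gap was smaller elsewhere: in the second Ser5 quintile the shares were 25.6% and 29.5% in DKO and 24.0% and 37.7% in HCT116, and in the highest they were 93.4% and 99.5% in DKO and 82.2% and 99.5% in HCT116. In the lowest Ser5 quintile of DKO the order was the other way, at 17.1% and 14.5%, while in HCT116 the shares were 20.3% and 27.2%.

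CTCF and cohesin were also more frequent at Ser5-rich pairs over all levels, but in DKO not at Ser5 percentiles 40 to 60. CTCF overlapped 28.4% of Ser2-rich, 29.4% of balanced and 63.3% of Ser5-rich pairs in DKO, and 16.9%, 21.1% and 59.2% in HCT116. Regions of both RAD21 and SMC1 overlapped 19.3%, 22.9% and 63.5% of the same classes in DKO, and 9.92%, 16.6% and 65.5% in HCT116. The difference between Ser2-rich and Ser5-rich pairs was -34.9 points for CTCF and -44.2 points for cohesin in DKO, and -42.3 points for CTCF and -55.6 points for cohesin in HCT116. Among pairs with a Ser5 percentile between 40 and 60, the CTCF difference turned to 12.1 points in DKO (Newcombe interval 9.41 to 14.8), with 34.7% of Ser2-rich against 22.6% of Ser5-rich pairs. In HCT116 it was -1.71 points there, with an interval of -4.08 to 0.60. The cohesin difference in that range was 2.37 points in DKO (-0.26 to 4.88) and -6.31 points in HCT116 (-8.47 to -4.22). Within Ser5 quintiles of DKO, CTCF was more frequent in the highest than in the lowest Ser2 quintile at every level. Its shares were 31.6% and 12.7% in the second Ser5 quintile, 48.3% and 46.1% in the fourth and 80.7% and 68.4% in the highest. Cohesin in DKO had the same order in every Ser5 quintile but the fourth, where it overlapped 35.9% and 47.4%. In HCT116 CTCF had that order in the lowest and second Ser5 quintiles only, and cohesin in the lowest only. In the fourth Ser5 quintile of HCT116 the shares were 26.4% and 46.6% for CTCF and 19.7% and 49.5% for cohesin. With Ser5 length brought to a common distribution, the CTCF difference was -3.50 points in DKO and -16.7 points in HCT116, and the cohesin difference was -8.88 points in DKO and -23.6 points in HCT116.

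**Figure D2:**
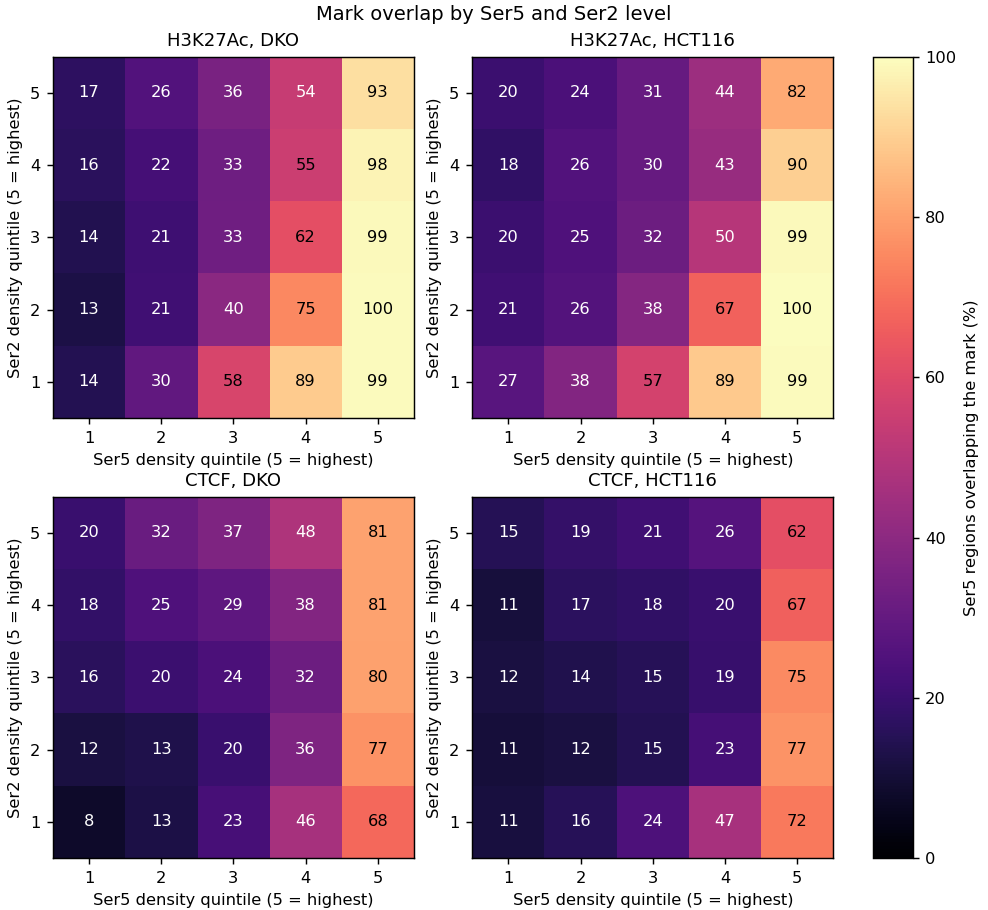
Percent of pairs whose Ser5 region overlaps H3K27Ac (top) or CTCF (bottom) in DKO (left) and HCT116 (right), by Ser5 density quintile (x axis) and Ser2 density quintile (y axis), with 5 the highest; the number in each cell is the percent. Within the fourth Ser5 quintile, where the gap is wide, H3K27Ac is less frequent at high Ser2 (54 against 89 in DKO, 44 against 89 in HCT116), while CTCF in the second Ser5 quintile of DKO is more frequent at high Ser2 (32 against 13).

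The density of CTCF ran the other way from its frequency. Where a CTCF region was present, its median density was 133 at Ser2-rich against 85.2 at Ser5-rich pairs in DKO, and 233 against 81.2 in HCT116. Over all levels Ser2-rich pairs thus met CTCF less often, and the CTCF regions they met were the denser ones in both lines.

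**Figure D3:**
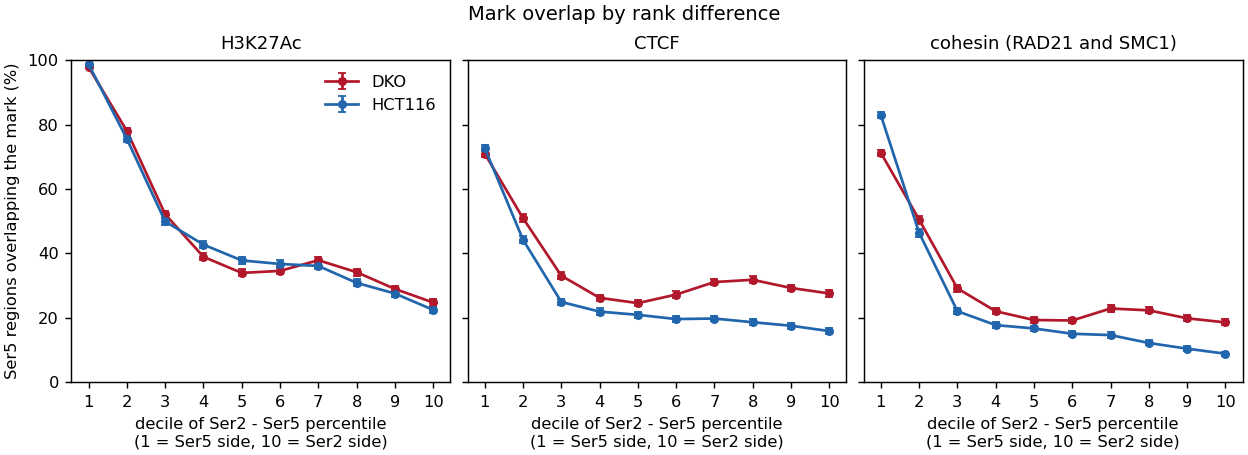
Percent of pairs whose Ser5 region overlaps H3K27Ac (left), CTCF (middle) or both cohesin subunits (right), by decile of the rank difference, from the Ser5 side (1) to the Ser2 side (10), in DKO (red) and HCT116 (blue); bars are Wilson 95% intervals over regions. H3K27Ac lies at 97.8% in DKO and 98.7% in HCT116 in decile 1 and at 24.8% and 22.5% in decile 10, and the DKO curve of CTCF is lowest in decile 5.

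Taken in combination, the marks split the CTCF and cohesin sites into opposite groups. Sites with H3K27Ac, CTCF and both cohesin subunits numbered 15118 in DKO, where 6.91% were Ser2-rich and 45.3% Ser5-rich, and 13014 in HCT116, where 5.66% were Ser2-rich and 57.4% Ser5-rich. This single combination held 53.1% of all Ser5-rich pairs in each line. Sites with CTCF and both cohesin subunits but no H3K27Ac leaned to Ser2, as other sites without H3K27Ac did. They numbered 2831 in DKO, with 36.1% Ser2-rich and 2.40% Ser5-rich, and 1712 in HCT116, with 35.0% Ser2-rich and 5.26% Ser5-rich. Their median rank difference was 18.0 points in DKO and 15.0 points in HCT116, against -19.5 and -35.4 points at the sites that also had H3K27Ac. Sites with CTCF alone had a median of 15.2 points (30.4% Ser2-rich) in DKO and 13.3 points (31.3%) in HCT116, and sites with no mark had 7.51 points (22.0%) in DKO and 9.83 points (29.2%) in HCT116. The direction held for both kinds of CTCF and cohesin site in both lines at a class limit of 40 points, among pairs called in the line, and with classes taken from counting intervals. The median Ser5 percentile of these sites was 86.4 in DKO and 89.0 in HCT116 with H3K27Ac, against 45.6 and 41.9 without it. A pair at such a high Ser5 percentile cannot be Ser2-rich, so the low Ser2-rich share with H3K27Ac is set in part by construction. The median Ser5 length was 1661 bp in DKO and 1768 bp in HCT116 with H3K27Ac, against 339 and 325.5 bp without it. None of these settings matched Ser5 level or length, and their part in the split was not tested. The pairs with cohesin but neither CTCF nor H3K27Ac were few, and 48.6% of 463 were Ser2-rich in DKO and 29.6% of 203 in HCT116.

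Sites with H3K27Ac alone, with no CTCF or cohesin, had a median rank difference near 0, but many were not balanced. In DKO 14.5% of them were Ser2-rich and 19.1% Ser5-rich, and in HCT116 18.0% and 15.1%. The median rank difference at these sites was -0.29 points over 8428 pairs in DKO and 1.28 points over 10455 pairs in HCT116. With H3K27Ac and both cohesin subunits but no CTCF it was -18.4 points over 2867 pairs in DKO and -35.8 points over 2884 pairs in HCT116, close to the value with all the marks. With H3K27Ac and CTCF but no cohesin it was 3.44 points over 1785 pairs in DKO and 4.85 points over 1058 pairs in HCT116. Of these pairs 15.9% were Ser2-rich and 20.7% Ser5-rich in DKO, and 22.5% and 12.7% in HCT116. Among acetylated sites the median was thus on the Ser5 side where both cohesin subunits were present, with or without CTCF, and near 0 where neither was. The acetylated cohesin sites were also longer and higher in Ser5, with a median length of 1191 bp against 453 bp for acetylated CTCF sites in DKO and 1375 bp against 404 bp in HCT116, and the part of length in the difference was not tested. Sites with no mark made up 51.2% of the Ser2-rich pairs against 8.14% of the Ser5-rich pairs in DKO, and 61.8% against 10.3% in HCT116, beside 42.5% of all pairs in DKO and 45.6% in HCT116.

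Regions of the TotalRNAPol2 table, whose title names total polymerase while its antibody label names Pol2Ser5, were frequent in both classes. They overlapped 85.5% of Ser2-rich, 71.5% of balanced and 94.97% of Ser5-rich pairs in DKO, and 53.8%, 40.7% and 75.4% in HCT116. Balanced pairs thus had the lowest share in both lines. The Ser5 region itself had been called in the line at 78.3% of Ser2-rich against 97.8% of Ser5-rich pairs in DKO, and at 22.6% against 86.5% in HCT116. The Ser2 region had been called in the line at 98.2% of Ser2-rich against 84.1% of Ser5-rich pairs in DKO, and at 92.0% against 42.4% in HCT116. Many Ser2-rich pairs of HCT116 thus had a Ser5 region called in DKO only.

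The classes had opposite shapes. The Ser5 region of a pair had a median length of 271 bp at Ser2-rich, 359 bp at balanced and 1498 bp at Ser5-rich pairs in DKO, and of 298, 353 and 1405.5 bp in HCT116. The Ser2 region had a median length of 1984 bp at Ser2-rich, 582 bp at balanced and 367 bp at Ser5-rich pairs in DKO, and of 2033, 549 and 379 bp in HCT116. A Ser2-rich pair was mostly a short Ser5 region inside a long Ser2 region, and a Ser5-rich pair mostly a short Ser2 region inside a long Ser5 region. The Ser5 region lay wholly inside the Ser2 region in 74.7% of Ser2-rich against 2.57% of Ser5-rich pairs in DKO, and in 71.1% against 3.87% in HCT116. The Ser2 region lay wholly inside the Ser5 region in 1.07% of Ser2-rich against 77.2% of Ser5-rich pairs in DKO, and in 2.09% against 69.9% in HCT116. Ser2-rich pairs shared their Ser2 region with other Ser5 regions in 59.9% of cases against 4.92% for Ser5-rich pairs in DKO, and 61.2% against 5.33% in HCT116. The midpoints of the 2 regions were more than 1 kb apart in 27.01% of Ser2-rich against 3.82% of Ser5-rich pairs in DKO, and in 26.4% against 3.06% in HCT116.

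Ser5 length and rank difference went together mainly towards the ends of the ranges, while Ser2 length also rose in the middle. Between deciles 4 and 8 of the rank difference the median Ser5 length lay between 323 and 366 bp in DKO and between 324 and 364 bp in HCT116. The median Ser2 length was 434 bp in decile 4 and 1255.5 bp in decile 8 in DKO, and 426 and 1161.5 bp in HCT116. In the longest quintile of Ser5 regions, 1261 bp or more, the median rank difference was -28.8 points in DKO and -30.9 points in HCT116, and in the shortest quintile it was 11.5 points in DKO and 9.83 points in HCT116. In the longest quintile of Ser2 regions, 2364 bp or more, it was 20.3 points in DKO and 24.1 points in HCT116, against -5.21 and -8.61 points in the shortest quintile. H3K27Ac at the Ser5 region overlapped 92.0% of the longest and 20.9% of the shortest quintile by Ser5 length in DKO, but 47.0% and 42.3% by Ser2 length. Overlap was counted with the Ser5 region only, so a longer Ser5 region has more room to meet a mark and a longer Ser2 region does not. These shares therefore cannot tell which of the lengths H3K27Ac goes with. A region's length is set by the same reads as its density, and a long Ser2 region was counted, as inferred, in a window of 2 kb only.

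**Figure D4:**
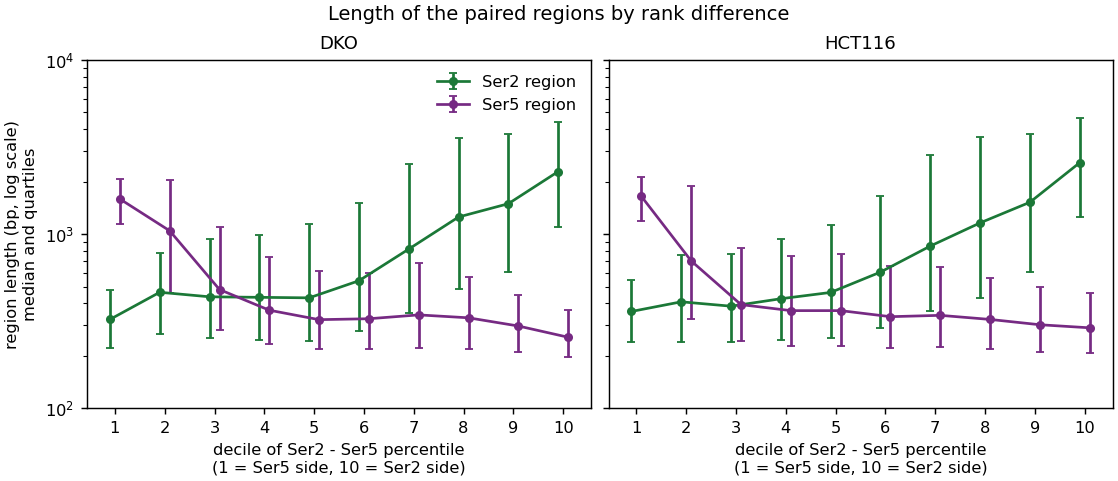
Length in bp on a log scale of the Ser2 region (green) and the Ser5 region (purple) of each pair, as the median with quartiles, by decile of the rank difference from the Ser5 side (1) to the Ser2 side (10), in DKO (left) and HCT116 (right). In decile 1 the Ser2 region is the shorter one (324 bp against 1593 bp for Ser5 in DKO) and in decile 10 it is the longer one (2290 bp against 256 bp for Ser5 in DKO), with the curves crossing between.

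Individual sites show the 2 shapes; all positions are on build hg19, and no gene is named at them because no annotation of that build was used. The most Ser2-rich pair over both lines was the 179 bp Ser5 region at chr22:37969262-37969441, inside a Ser2 region of 9329 bp. It had 469 Ser2 and 12 Ser5 reads in DKO, at percentiles 99.0 and 2.19, and 739 Ser2 and 17 Ser5 reads in HCT116, at percentiles 99.8 and 15.8. No H3K27Ac, CTCF, RAD21 or SMC1 region of either line overlapped it. The Ser5 region at chr7:26218220-26218464, inside a Ser2 region of 13813 bp, had 425 Ser2 and 29 Ser5 reads in DKO and 865 Ser2 and 15 Ser5 reads in HCT116. The region at chr9:132273845-132274024, in a Ser2 region of 26157 bp, had 243 Ser2 and 27 Ser5 reads in DKO and 502 Ser2 and 15 Ser5 reads in HCT116. The fourth, at chrX:153167796-153167975, had 320 Ser2 and 29 Ser5 reads in DKO and 281 Ser2 and 8 Ser5 reads in HCT116. H3K27Ac overlapped the chrX site in both lines, the chr7 site in DKO and the chr9 site in HCT116. RAD21 overlapped the chrX, chr7 and chr9 sites in DKO, and the chr9 site in HCT116 as well. SMC1 overlapped the chr9 site in DKO and the chr7 site in HCT116. None of the 4 overlapped CTCF in either line, and each Ser2 region held 4 or 5 paired Ser5 regions. The Ser5 region had been called in HCT116 only at the chr22 site, and in DKO only at the chrX, chr7 and chr9 sites. The midpoints of the Ser5 and Ser2 regions were 3.17 kb apart at the chr22 site, 6.19 kb at the chr7 site, 12.3 kb at the chr9 site and 2.51 kb at the chrX site, so the Ser2 reads of these 4 pairs may lie elsewhere in the Ser2 region.

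The most Ser5-rich pair was the 1894 bp Ser5 region at chr10:32733954-32735848, which held a Ser2 region of 172 bp. It had 8 Ser2 and 482 Ser5 reads in DKO, at percentiles 2.77 and 93.04, and 22 Ser2 and 353 Ser5 reads in HCT116, at percentiles 8.43 and 96.0. H3K27Ac, CTCF, RAD21 and SMC1 all overlapped it in both lines. The 2421 bp region at chr6:82956487-82958908 had 10 Ser2 and 500 Ser5 reads in DKO and 22 Ser2 and 346 Ser5 reads in HCT116, again with every mark in both lines. The regions at chr1:148240658-148242270 and chr8:2074215-2076367 had 10 and 12 Ser2 reads beside 405 and 413 Ser5 reads in DKO, and 20 and 18 Ser2 reads beside 333 and 338 Ser5 reads in HCT116. Both had H3K27Ac and RAD21 in both lines and no CTCF. All 4 Ser2 regions were between 169 and 288 bp long and belonged to 1 Ser5 region each. The Ser2 region had been called in both lines at the chr1 site only. At the chr10 and chr6 sites it had been called in HCT116 only, and at the chr8 site in DKO only.

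The 3 pairs named for being high in all 4 ranks were on long regions, and their high ranks for both forms follow from that selection. The pair with the highest minimum of its 4 percentiles, at chr16:89624845-89633230, had 1029 Ser2 and 1874 Ser5 reads in DKO and 1497 Ser2 and 1473 Ser5 reads in HCT116. The others were at chr8:146011412-146020143, with 870 Ser2 and 1492 Ser5 reads in DKO and 973 and 1231 in HCT116, and at chr17:79474386-79487607, with 838 Ser2 and 2139 Ser5 reads in DKO and 713 and 1650 in HCT116. Their Ser5 regions were 8385, 8731 and 13221 bp long, and every mark overlapped all 3 in both lines. The longest Ser2 region, chr6:151649354-151684287 of 34933 bp, held 11 paired Ser5 regions. It had 69 Ser2 reads in DKO and 583 in HCT116, a log2 ratio M of DKO over HCT116 of -3.32. Ser5 was also lower in DKO at its 3 named pairs, with an M of -1.20, -2.52 and -2.32, and their rank differences were 9.05, 32.6 and 2.52 points higher in DKO than in HCT116.

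The lines mostly shared their Ser5-rich sites and shared fewer of their Ser2-rich sites. The rank differences of the lines had a Spearman correlation of 0.66 over the 72087 pairs, with the density of one line set in part by the other through the normalization. Pairs Ser5-rich in both lines numbered 9035, which is 70.1% of the DKO class and 64.3% of the HCT116 class. Pairs Ser2-rich in both lines numbered 7513, 57.3% of the DKO class and 48.4% of the HCT116 class. Pairs of opposite class in the lines numbered 403. The shared Ser5-rich pairs were nearly all acetylated, at 97.8% in DKO and 97.5% in HCT116, and 72.1% in DKO and 70.8% in HCT116 had CTCF. The shared Ser2-rich pairs had H3K27Ac at 22.1% in DKO and 22.9% in HCT116 and CTCF at 24.7% in DKO and 16.9% in HCT116. Among the 3713 pairs Ser5-rich in DKO and balanced in HCT116, H3K27Ac overlapped 74.3% in DKO against 56.6% in HCT116.

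Where H3K27Ac differed between the lines, the rank difference moved with it towards Ser5 in the line with more acetylation. Of 37664 pairs matched to an H3K27Ac region, 4599 (12.2%) had an H3K27Ac density at least 2-fold higher in DKO, against 11% of all H3K27Ac regions, and 2976 (7.90%) had one at least 2-fold higher in HCT116, against 10.4%. Where it was higher in DKO, the median shift of the rank difference, DKO minus HCT116, was -10.8 points (order-statistic 95% interval -11.9 to -9.63). Where it was higher in HCT116, the median shift was 11.5 points (10.4 to 12.7), and between these limits it was 3.19 points. Both forms ranked higher with the acetylation and Ser5 more so. At pairs with more H3K27Ac in DKO, the median Ser2 percentile was 55.4 in DKO against 23.8 in HCT116, and the median Ser5 percentile 74.9 in DKO against 30.0 in HCT116. At pairs with more H3K27Ac in HCT116, the median Ser2 percentile was 24.5 in DKO against 50.4 in HCT116, and the median Ser5 percentile 27.4 in DKO against 73.5 in HCT116. Among the 14099 pairs called in both lines in both tables the shifts kept their sign but were smaller, at -4.06 points and 5.47 points.

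CTCF ratios went with smaller shifts. Of 27203 pairs matched to a CTCF region, 6152 (22.6%) had a CTCF density at least 2-fold higher in DKO, against 20.1% of all CTCF regions, and 600 (2.21%) had one at least 2-fold higher in HCT116, against 6.33%. The median shift was 1.06 points (0.41 to 1.87) where CTCF was higher in DKO and 3.32 points (0.88 to 6.42) where it was higher in HCT116, beside 3.51 points between these limits. The value where CTCF was higher in HCT116 turned to -1.36 points among pairs called in both lines, and the value where it was higher in DKO was 2.74 points there. Pairs with more CTCF in DKO ranked higher in DKO for both forms, with a median Ser2 percentile of 72.3 in DKO against 53.2 in HCT116 and a median Ser5 percentile of 70.0 in DKO against 49.4 in HCT116.

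RAD21, the cohesin subunit cleaved to release the ring, differed from CTCF. Of 30339 matched pairs, 3720 (12.3%) had a RAD21 density at least 2-fold higher in HCT116, against 8.7% of all RAD21 regions, and 2695 (8.88%) had one at least 2-fold higher in DKO, against 13.7%. The pairs with more RAD21 in HCT116 were strongly on the Ser5 side in both lines, with a median rank difference of -37.5 points in DKO and -51.6 points in HCT116, and their median shift was 9.21 points. The pairs with more RAD21 in DKO had a median shift of -6.89 points. The RAD21 ratio thus moved with the rank difference in the same direction as the H3K27Ac ratio. The ranks behind the shift differed, however, at the pairs with more RAD21 in HCT116. Their median Ser5 percentile was 88.4 in DKO and 89.9 in HCT116, and their median Ser2 percentile 39.5 and 33.5. At pairs with more RAD21 in DKO both forms ranked higher in DKO, as with H3K27Ac. There the median Ser2 percentile was 67.0 in DKO against 45.2 in HCT116, and the median Ser5 percentile 69.2 against 33.1. For SMC1 the median shift was 9.05 points where it was higher in HCT116 and -4.87 points where it was higher in DKO. The pairs with more SMC1 in HCT116 had median rank differences of -10.4 points in DKO and -34.7 points in HCT116.

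**Figure D5:**
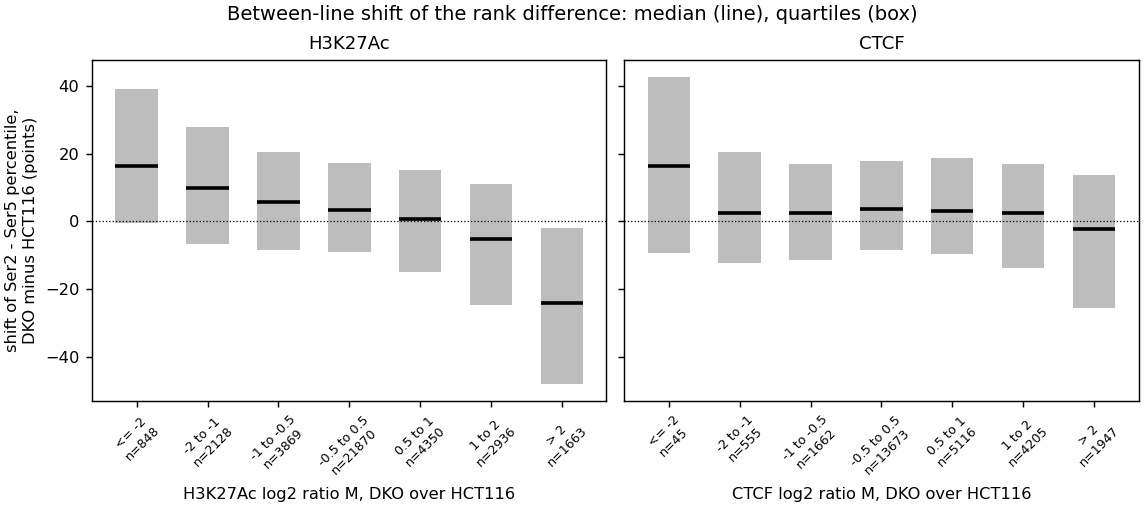
Shift of the rank difference (Ser2 percentile minus Ser5 percentile), DKO minus HCT116, in points, by the log2 ratio M of H3K27Ac (left) and of CTCF (right), DKO over HCT116; lines are medians, boxes span the quartiles, and n is the number of pairs. For H3K27Ac the median goes step by step from 16.2 points at M of -2 or less to -24.1 points at M above 2, while for CTCF it lies between 2.33 and 3.73 points in the 5 middle bins is -2.18 points at M above 2, and is 16.2 points in the 45 pairs at M of -2 or less.

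Single sites that changed most between the lines changed in different ways. Reads are given as counted and are not scaled for depth, and M is the deposited log2 ratio of the normalized densities, DKO over HCT116. At chr6:28129139-28130864 Ser2 had 43 reads in DKO against 82 in HCT116 (M -0.60), while Ser5 had 439 in DKO against 7 in HCT116 (M 5.02), and H3K27Ac was called there in DKO only. At chr12:74685601-74688237 Ser2 had 33 reads in DKO against 63 in HCT116 (M -0.47) and Ser5 had 657 in DKO against 14 in HCT116 (M 4.67), with an H3K27Ac M of 3.73. At chr16:1144189-1144766 both forms moved, with 59 Ser2 reads in DKO against 306 in HCT116 (M -2.42) and 170 Ser5 reads in DKO against 21 in HCT116 (M 2.20), and the H3K27Ac M was 0.31. These 3 pairs moved towards Ser5 in DKO. Their Ser5 and Ser2 midpoints were 1.18, 0.36 and 2.51 kb apart.

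The 3 pairs that moved most towards Ser2 in DKO differed more in Ser2 than in Ser5. At chr10:135234204-135234514 Ser2 had 173 reads in DKO against 37 in HCT116 (M 2.37), and Ser5 had 27 in DKO against 32 in HCT116 (M -0.96). At chr20:61684529-61684968 Ser2 had 179 reads in DKO against 12 in HCT116 (M 4.22), and Ser5 had 48 in DKO against 25 in HCT116 (M 0.18). At chr1:6474266-6474953 Ser2 had 174 reads in DKO against 48 in HCT116 (M 1.95), and Ser5 had 32 in DKO against 44 in HCT116 (M -1.19). No H3K27Ac region of DKO overlapped any of the 3, and 1 of HCT116 overlapped the last. Their Ser5 and Ser2 midpoints were 1.46, 1.39 and 1.36 kb apart.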

How the data were processed

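ChIP libraries of 7 targets in DKO and HCT116, grouped by the cell line and target in their titles, were read from the authors' deposited tables, 1 per target, with 1 row per region called in DKO, in HCT116 or in both. Per the submitters' processing notes, reads were aligned with BWA to hg19 and MACS2 was used for every target except TotalRNAPol2; the sources used here name no version or threshold. Each table holds, per the file headers, a normalized read density per line, a signal scaled between the lines by the authors, with a log2 ratio M of DKO over HCT116 and a mean log2 density A; the deposited p-value was not used. Levels were compared only within a table. Reads were recovered from M and A as whole numbers, within 0.05 for 100% of values of the polymerase tables, with 1 taken as added to each count and a window of 2 kb inferred. The density of a line depends slightly on the other line, with a slope on A of 0.33 for Pol2Ser2 and 0.04 for Pol2Ser5.

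Overlaps, percentiles and intervals were computed with Python 3.11.15, numpy 2.4.6, pandas 2.3.3 and scipy 1.17.1, and tested on simulated data. A mark was counted at a Ser5 region when a region called in that line overlapped it by at least 1 bp. Shares have Wilson 95% intervals, differences of shares Newcombe intervals, medians order-statistic intervals and reads exact Poisson intervals; PCR copies are not independent reads. No p-value was computed. Named regions are the 4 highest and 4 lowest mean rank differences among pairs whose higher percentile was at least 90 in each line. The 3 highest minima of the 4 percentiles were also named, as were 3 of the 11 pairs on the longest Ser2 region. So were the 3 largest shifts in each direction among pairs with a percentile of at least 90. A second pair within 50 kb was passed over in the rank difference and shift groups. The pairs, class limit, alternatives and named regions were chosen with earlier results of these data known. The alternatives were a class limit of 40 points, midpoints within 1 kb, pairs called in the line, 1 Ser5 region per Ser2 region, a mean percentile of at least 50, a mark overlap of 500 bp and a common length distribution. Ranks from recovered reads, Ser5 percentiles 40 to 60 and classes from counting intervals were added after seeing the data, as were the groups by combined marks.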

Additional observations from a re-analysis of the deposited data

Results flagged for a closer look

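Each of 6 named pairs had a rank difference of opposite sign in the lines, and the difference between the lines was not tested, since each line has 1 library per target. The shift of the rank difference, DKO minus HCT116, was 96.9 points at chr10:135234204-135234514, with 82.9 points in DKO and -14.0 points in HCT116. It was 95.2 points at chr20:61684529-61684968, with 61.6 points in DKO and -33.5 points in HCT116, and 94.8 points at chr1:6474266-6474953, with 78.2 points in DKO and -16.7 points in HCT116. It was -117 points at chr6:28129139-28130864, with -45.8 points in DKO and 71.7 points in HCT116. It was -112 points at chr12:74685601-74688237, with -63.1 points in DKO and 49.1 points in HCT116, and -95.2 points at chr16:1144189-1144766, with -25.9 points in DKO and 69.3 points in HCT116. These pairs were named for the size of their shift, so the sizes are a description only.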

How the results depend on the processing

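No paired analysis was possible because each line has 1 library per target and the labels give no replicate numbers. With a class limit of 40 points, 6.78% of pairs were Ser2-rich and 11.7% Ser5-rich in DKO and 10.9% Ser2-rich in HCT116, the H3K27Ac, CTCF and cohesin differences (Ser2-rich minus Ser5-rich) were -73.0, -42.8 and -51.8 points in DKO and -74.0, -53.3 and -69.5 points in HCT116, the length ratios (Ser2-rich over Ser5-rich) were 0.158 for Ser5 and 7.35 for Ser2 regions in DKO and 0.178 and 6.74 in HCT116, and 2314 pairs were Ser2-rich in both lines and 24 opposite. Among pairs called in the line the correlations were 0.269 in DKO and 0.273 in HCT116, the 3 mark differences -62.5, -37.2 and -46.9 points in DKO and -65.3, -51.5 and -66.9 points in HCT116, the Ser5 length ratio 0.189 in DKO and the Ser2 length ratio 4.97 in HCT116; among those called in both lines 2976 pairs were Ser2-rich in both, 3165 Ser5-rich in both and 33 opposite, and the shifts were -4.06 and 5.47 points for H3K27Ac higher in DKO and in HCT116 and 2.74 and -1.36 points for CTCF. With midpoints within 1 kb the H3K27Ac difference in HCT116 was -64.1 points, the Ser5 length ratio in DKO 0.186 and the Ser2 length ratios 3.47 in DKO and 3.34 in HCT116. With 1 Ser5 region per Ser2 region the correlations were 0.494 in DKO and 0.324 in HCT116. Among pairs with a mean percentile of at least 50 they were -0.218 in DKO and -0.299 in HCT116; this choice removes the pairs low for both forms by its construction. A mark overlap of 500 bp gave -73.9, -37.6 and -39.1 points in DKO and -65.7, -32.9 and -38.0 points in HCT116 for H3K27Ac, CTCF and cohesin, and a common length distribution -39.7, -3.50 and -8.88 points in DKO and -40.9, -16.7 and -23.6 points in HCT116. At Ser5 percentiles 40 to 60 they were -23.5, 12.1 and 2.37 points in DKO and -24.3, -1.71 and -6.31 points in HCT116. Ranks from recovered reads gave a correlation of 0.459 and H3K27Ac and CTCF differences of -65.3 and -36.1 points in DKO. Classes from counting intervals gave -55.4, -30.9 and -40.9 points in DKO and -46.9 points for CTCF and -60.8 points for cohesin in HCT116. Of 107 comparisons of a main result with an alternative, 41 stayed within their interval or within 1.5-fold, 61 moved without a change of sign and 5 changed sign: the correlation in both lines, CTCF and cohesin in DKO, and the shift with CTCF higher in HCT116. The cause of the other moves was not tested. Depth limits single pairs: the counting interval at the median Ser5 reads spans percentiles 35.3 to 64.0 in DKO and 28.1 to 70.2 in HCT116.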

Other observations

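Ser2-rich pairs were not nearer to a Ser5-rich pair than balanced pairs were. The median distance to the nearest Ser5-rich pair on the chromosome was 22.2 kb from Ser2-rich, 15.9 kb from balanced and 22.6 kb from other Ser5-rich pairs in DKO, and 17.1, 14.3 and 15.6 kb in HCT116. Within 20 kb of a Ser5-rich pair lay 46.3% of Ser2-rich and 57.1% of balanced pairs in DKO, and 56.5% and 60.8% in HCT116.

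The chromosomes differed in their make-up. Ser5-rich pairs made up 27.3% of the 1151 pairs of chromosome X in DKO and 29.0% in HCT116, and 12.7% of the 4395 pairs of chromosome 16 in DKO and 14.6% in HCT116. Chromosome 18 had 26.0% in DKO and 29.3% in HCT116 over 726 pairs. Ser2-rich pairs were most frequent on chromosome 22 in DKO, at 22.7%, and on chromosome 21 in HCT116, at 23.8%, and least frequent on chromosome 8 in both lines, at 14.6% in DKO and 17.7% in HCT116.

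The 403 pairs of opposite class had H3K27Ac ratios on the side of the Ser5-rich line. At the 258 pairs Ser2-rich in DKO and Ser5-rich in HCT116, H3K27Ac overlapped 42.2% in DKO against 54.3% in HCT116, with a median H3K27Ac M of -0.45 over 150 matched pairs. At the 145 pairs Ser5-rich in DKO and Ser2-rich in HCT116, it overlapped 57.2% in DKO against 48.3% in HCT116, with a median M of 0.81 over 87 matched pairs. The Ser5 and Ser2 regions had both been called in HCT116 at 11.2% of the 258 pairs and 10.3% of the 145 pairs.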
